A study of Mus musculus with 24 samples.

Results

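The RNA of 10 named genes of the heat shock and chaperone system was followed through 24 RNA libraries of lymphocytes sorted from the inflamed mouse colon: Hspa1a, Hspa1b, Hspa8, Hsph1, Dnaja1, Dnajb1, Hsp90aa1, Hsp90ab1, Hspd1 and Hspe1. They were taken by name from the 27179 gene rows of the count table, and all 10 were found and passed the filter on low counts in every comparison. The libraries came from Nmur1 iCre-eGFP mice, in which eGFP reports expression of Nmur1, the receptor gene for the neuropeptide neuromedin U (NMU). Colitis had been set off in all mice by 3% dextran sulfate sodium (DSS) in the drinking water over 5 days, with 3 days of plain water after it. NMU or phosphate-buffered saline (PBS) was given into the peritoneum on alternate days. Mice 1 to 4 received NMU and mice 5 to 8 PBS per the sample labels, which name 4 mice per treatment where the design text counts 3. Each mouse gave 3 libraries: eGFP+ group 2 innate lymphoid cells (ILC2), eGFP+ CD4 T cells (NMUR1+ cells) and eGFP- CD4 T cells (NMUR1- cells). The 6 groups are thus ILC2, NMUR1+ and NMUR1- cells of NMU mice and the same populations of PBS mice, with n = 4 each.

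Chaperones bind unfolded protein and help it to fold, and many of their genes are switched on by heat shock factor 1 (HSF1) when misfolded protein accumulates. Hsp70 proteins bind exposed stretches of a client in a cycle of ATP hydrolysis that J-domain proteins start and that Hsp110 proteins reset by exchanging the nucleotide, and Hsp90 then matures selected clients such as kinases and steroid receptors. In lymphocytes these genes are known to respond to fever, activation and culture stress, and in dissociated tissue some of them, together with immediate early genes, are also raised by the handling of the cells.

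Total counts ran from 8485266 to 17854961 per library. The mean level of Nmur1 was 234 ± 56.6 CPM for ILC2, 41.2 ± 24.2 for NMUR1+ and 4.37 ± 2.55 for NMUR1- cells (SD, n = 8). CPM, the counts of a gene scaled to a common library size, use the trimmed mean of M values throughout. In mouse 1 Nmur1 was at 6.14 CPM in the NMUR1+ library, below 7.19 CPM in the NMUR1- library. In all other mice the NMUR1+ library had more Nmur1 than the NMUR1- library. The summed level of 8 ILC2 markers was 11371 to 15039 CPM for ILC2, 3394 to 5780 for NMUR1+ and 1251 to 2310 for NMUR1- libraries. Immunoglobulin RNA, a plasma cell product, took over 20% of the counts in 4 NMUR1+ libraries, those of mice 1, 4, 5 and 7. These libraries are called the 4 immunoglobulin-rich libraries below. In bulk RNA, fewer cells of a type and less RNA per cell cannot be told apart.

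The 10 genes differ by orders of magnitude in their level, and Hspa8, Hsp90ab1 and Dnajb1 stood highest per length in all 3 populations. Levels per kilobase of exon (CPM divided by the joined exon length in GENCODE vM21, given as mean ± SD of 8 libraries) set genes side by side only roughly. The joined length takes in the exons of all annotated transcript forms, with 4301 bases for Hspa8, 8629 for Dnaja1 and 7266 for Hsph1. It can exceed the length of the RNA made, to a degree that may differ between genes. The order of the genes below holds for this scale only. Hspa8, the constitutive cytosolic Hsp70, and Hsp90ab1, the constitutive cytosolic Hsp90, lay at the top, with 579 ± 101 and 577 ± 83.6 CPM per kb in ILC2, 392.3 ± 32.6 and 551 ± 37.2 CPM per kb in NMUR1+ and 345 ± 57.4 and 554 ± 73.6 CPM per kb in NMUR1- cells. These 2 genes did not differ beyond their spread in ILC2 on this scale. Dnajb1, a J-domain partner of Hsp70 and a classic HSF1 target, came next with 284 ± 96.4 CPM per kb in ILC2, 162 ± 26.7 in NMUR1+ and 110 ± 24.9 in NMUR1- cells. Hspa1a, the stress-inducible Hsp70, lay at 103 ± 63.2 CPM per kb in ILC2, at 119 ± 60.3 in NMUR1+ and at 57.7 ± 46.8 in NMUR1- cells. Next in ILC2 were Hsp90aa1, the inducible Hsp90 (91.7 ± 19.0 CPM per kb), Dnaja1, a second J-domain partner of Hsp70 (83.2 ± 27.5), and Hspd1, the mitochondrial chaperonin Hsp60 (72.0 ± 7.95), which together with Hspa1a did not differ beyond their spread. Hspe1, the Hsp10 lid of that chaperonin, was at 37.4 ± 8.22, Hsph1, an Hsp110 exchange factor, at 27.6 ± 16.6 and Hspa1b, the near copy of Hspa1a, at 3.53 ± 2.43 CPM per kb in ILC2.

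Hspa1a and Hspa1b lie beside each other on the minus strand of chromosome 17 (GRCm38, 34969359 to 34972156 and 34956429 to 34959238, gene 193740 and gene 15511). Their promoters are shown because the counts of these 2 genes cannot be cleanly parted. The 250 bases before each RefSeq gene start (GRCm38.p6, minus strand) read 5′ to 3′ as follows, with the letters GAANNTTC, a pair of inverted units of the heat shock element that HSF1 binds, in capitals.
Hspa1a, chr17:34972157-34972406: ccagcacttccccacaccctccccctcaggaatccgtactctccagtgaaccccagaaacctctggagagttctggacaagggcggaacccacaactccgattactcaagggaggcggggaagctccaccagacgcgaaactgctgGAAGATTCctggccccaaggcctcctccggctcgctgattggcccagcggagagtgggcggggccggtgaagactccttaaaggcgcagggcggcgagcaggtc
Hspa1b, chr17:34959239-34959488: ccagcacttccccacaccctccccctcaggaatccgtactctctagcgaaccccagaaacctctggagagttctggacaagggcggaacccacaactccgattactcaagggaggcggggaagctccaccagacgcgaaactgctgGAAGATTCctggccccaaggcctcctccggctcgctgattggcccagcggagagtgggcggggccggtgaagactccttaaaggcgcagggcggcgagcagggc

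The upstream stretches of Hspa1a and Hspa1b differ at 3 of 250 positions, counted from 1 at the first base shown and written with the Hspa1a base first: C44T, T47C and T249G. Of the 75-base windows of the transcripts, 52.7% of those of Hspa1a occur letter for letter in Hspa1b and 55.8% of those of Hspa1b in Hspa1a, so reads from either gene may have been split or left out by the authors' counting. Hspa1b held 1.01 to 5.46% of the counts of both genes over the 24 libraries, with a median of 3.14%. The values of both genes are therefore uncertain as a split. When their counts were summed to 1 gene, the number of genes past the test was the same for these 10 in each treatment comparison.

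RefSeq promoter windows (250 bases before to 50 after a gene start) were held for 7 of the 10 genes: Hspa1a, Hspa1b, Hsph1, Dnaja1, Dnajb1, Hspd1 and Hspe1. For 6 of these 7 genes at least 1 window holds a pair of inverted units spelled GAANNTTC or TTCNNGAA. Hsph1, Dnaja1, Dnajb1 and Hspd1 have more than 1 window each, set on different starts, and in Dnaja1 and Hspd1 not every window matches. The counts here are of genes and the shares below are of windows, so they are unlike measures. Both spellings are their own reverse complement, so each match stands on both strands, and matches of the 2 spellings can overlap. Such a pair occurs in 15.1% of the 32851 windows of that length in the table. A run of 3 alternating units, which is GAANNTTC and TTCNNGAA overlapping by 1 unit, occurs in 0.603% of all windows and in windows of 3 of the 7 genes, Hsph1, Hspd1 and Hspe1. Dnajb1 had no match in its windows, which says only that these letters are not there.

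Dnaja1 is shown because it is the gene that passed the test of NMU against PBS below. Its upstream bases on the plus strand of chromosome 4 (gene 15502, 40722468 to 40734965) hold 1 pair of units. In its windows the Hsph1 run begins 36 or 15 bases after the start on which the window was set. A further pair of units before those starts is not shown. Both starts, the run and that pair lie inside the annotated gene (minus strand, 149616843 to 149636498). In the windows that hold them, the runs of Hspd1 and Hspe1 lie before the start on which the window was set. For Hspe1 this is the annotated gene start. For Hspd1 it is a start inside the annotated gene, and the run too lies inside that gene. The Hspd1 window set on the annotated gene start, at 55088243 on the minus strand, has no match. The sites of the chaperonin genes and of Hsph1 are given with 30 bases each.
Dnaja1, chr4:40722218-40722467: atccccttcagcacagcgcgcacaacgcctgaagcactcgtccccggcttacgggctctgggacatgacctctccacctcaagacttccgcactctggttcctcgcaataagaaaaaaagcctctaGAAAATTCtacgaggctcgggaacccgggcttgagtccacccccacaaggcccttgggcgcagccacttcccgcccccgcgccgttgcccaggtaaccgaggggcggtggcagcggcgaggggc
Hsph1, chr5:149636287-149636316: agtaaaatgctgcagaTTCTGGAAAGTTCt
Hspd1, chr1:55088053-55088082: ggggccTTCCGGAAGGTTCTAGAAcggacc
Hspe1, chr1:55088053-55088082: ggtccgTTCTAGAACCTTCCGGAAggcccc

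Hspd1 and Hspe1 stand head to head on chromosome 1 and share 1 element, read from opposite strands: the 18 capital bases of Hspd1 are the reverse complement of those of Hspe1. The annotated genes overlap by 96 bases (Hspd1, gene 15510, minus strand, 55077833 to 55088243; Hspe1, gene 15528, plus strand, 55088148 to 55091317). Without strand, reads in that overlap cannot be told apart. Dnaja1 likewise overlaps a long noncoding gene, Gm6297, by 374 bases, a gene that held 276 counts over all 24 libraries. Hsph1 (gene 15505, minus strand) has its gene start at 149636498 on chromosome 5. The other genes are Hspa8 on chromosome 9 (gene 15481, 40801276 to 40805202) and Dnajb1 on chromosome 8 (gene 81489, 83608175 to 83612653). Hsp90aa1 lies on chromosome 12 (gene 15519, 110691036 to 110696395) and Hsp90ab1 on chromosome 17 (gene 15516, 45567778 to 45573261).

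In ILC2 of NMU mice all 10 genes had less RNA than in ILC2 of PBS mice, and 1 of them, Dnaja1, fell past the test. Over all genes 74 of 11205 (0.66%) passed in this comparison, 29 of them lower (0.259%) and 45 higher (0.402%). The median log2 difference of the 10 was -0.52, against -0.03 over all genes tested. Without PBS mouse 6 this median was -0.33, with all 10 still below 0 and 0 past the test, and the log2 difference was -0.26 for Hspa1a and -0.27 for Dnajb1. In 5 of the 10, Hspa8, Dnaja1, Hsp90aa1, Hsp90ab1 and Hspd1, every NMU library lay below every PBS library, which held for 4.9% of the 7958 genes whose mean in ILC2 was 10 CPM or more (5.72% had every NMU library higher). Before adjustment, p was under 0.05 for 6 of the 10 and for 12.4% of all genes. The comparison asks what NMU given during colitis does to the RNA of cells that carry its receptor.

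**Figure D1:**
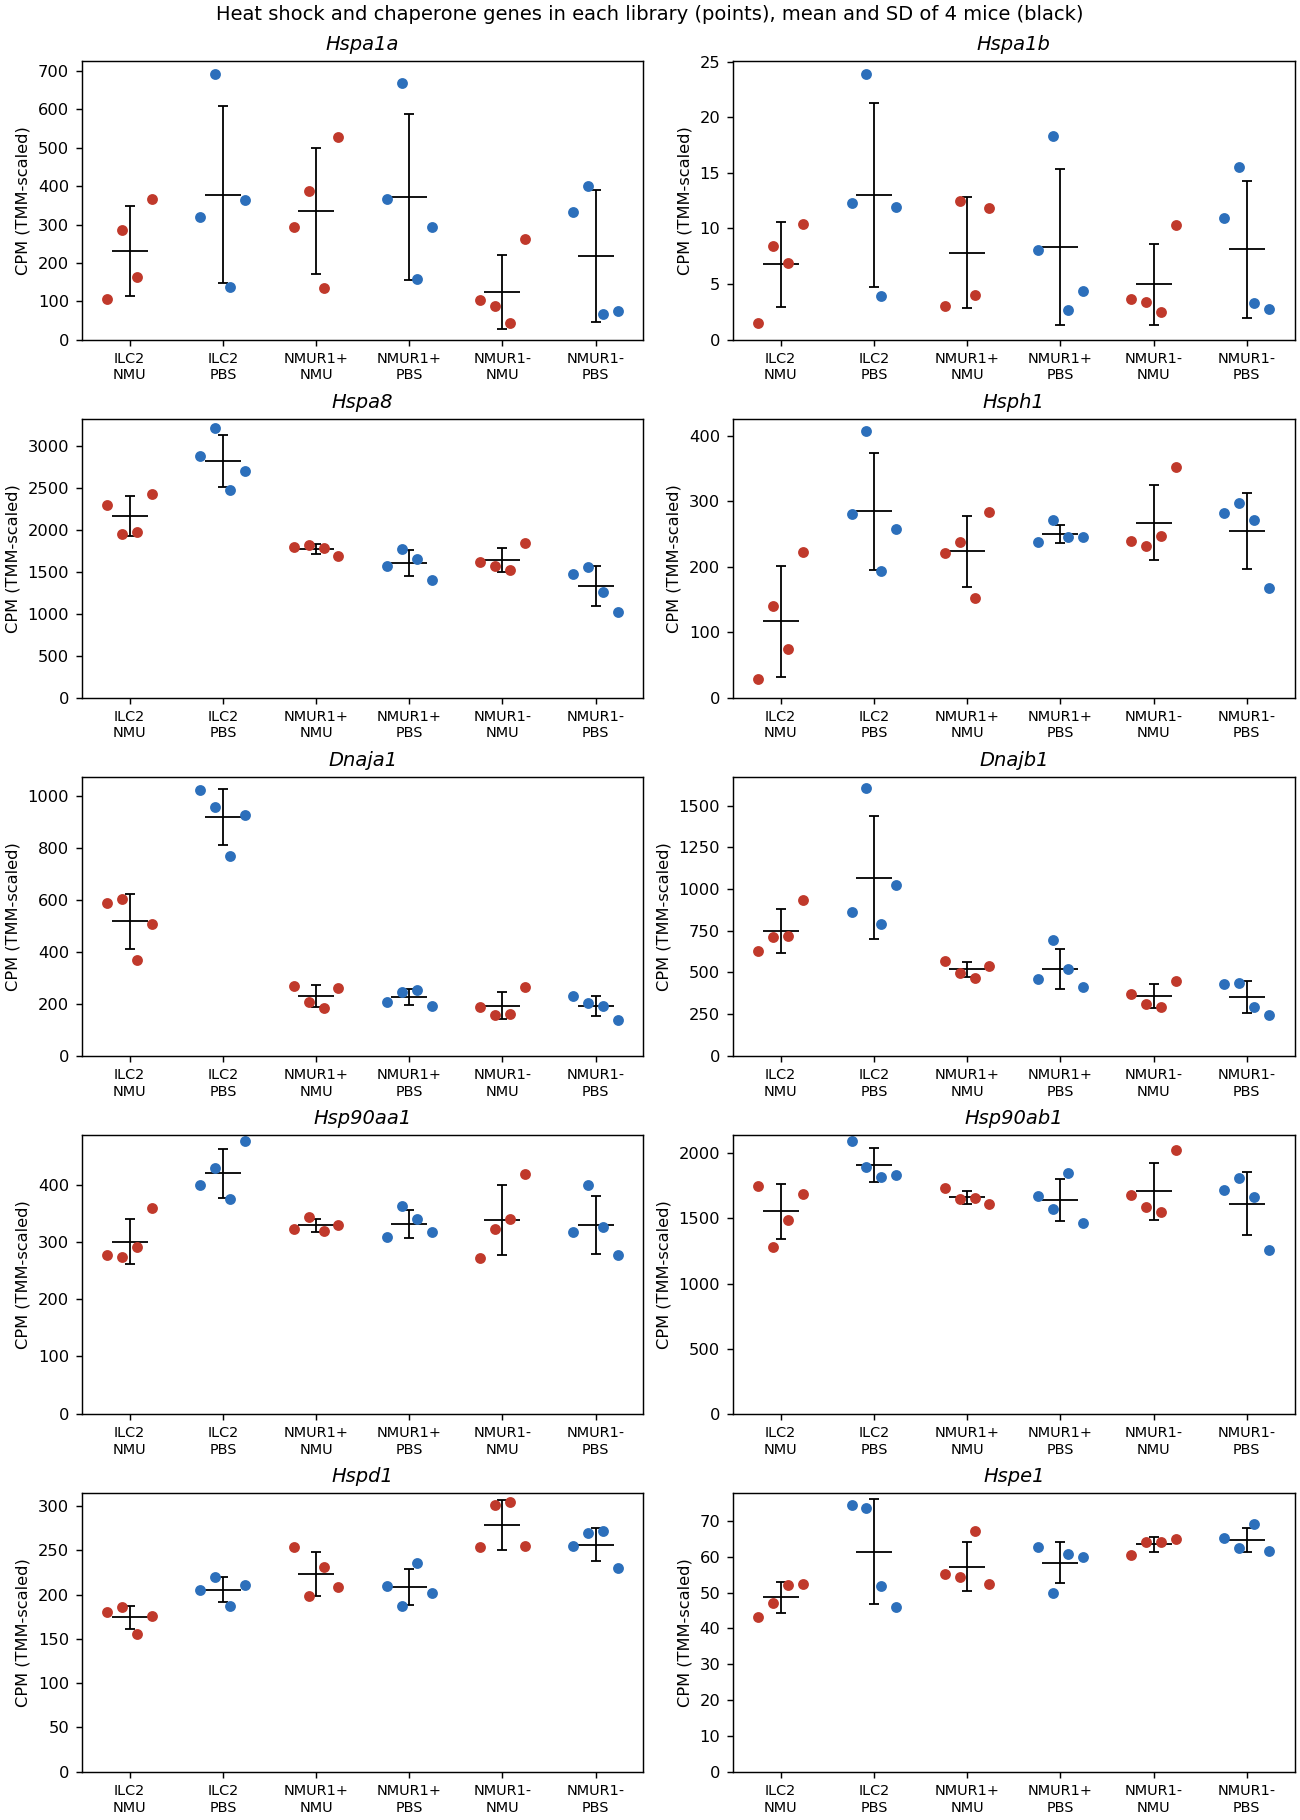
Level of each gene in CPM (vertical axes from 0) in the 6 groups; each point is 1 library, the black bar and whiskers are the mean and SD of 4 mice, NMU in red and PBS in blue. In ILC2 the NMU points lie below all PBS points for Hspa8, Dnaja1, Hsp90aa1, Hsp90ab1 and Hspd1, and no gene shows such a gap in NMUR1+ or NMUR1- cells.

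Among the Hsp70 genes the constitutive Hspa8 was the steadiest. It was at 2295, 1951, 1979 and 2428 CPM in ILC2 of NMU mice 1 to 4, against 2885, 3211, 2481 and 2697 CPM in ILC2 of PBS mice 5 to 8. The groups did not overlap, and NMU mouse 4 and PBS mouse 7 lay closest to each other. The log2 difference of Hspa8 was -0.40 (SE 0.11, edgeR adjusted p = 0.155, n = 4 each). A call for Hspa8 came from DESeq2 (adjusted p = 0.0201) and from edgeR fitted to all 24 libraries (0.0457), and the adjusted p spanned 0.0201 to 0.326 over 15 alternatives.

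The stress-inducible Hsp70 genes varied far more between mice. Hspa1a was at 105, 285, 164 and 367 CPM in ILC2 of NMU mice 1 to 4, against 319, 692.9, 137 and 365 CPM in ILC2 of PBS mice 5 to 8. PBS mouse 6 was the highest and NMU mouse 1 the lowest, and the groups overlapped, with PBS mouse 7 below 3 of the NMU mice and NMU mouse 4 above 3 of the PBS mice. The log2 difference of Hspa1a was -0.73 (SE 0.47, edgeR adjusted p = 0.615). Hspa1b, its near copy, averaged 6.79 ± 3.82 CPM in ILC2 of NMU mice and 13.0 ± 8.24 CPM in ILC2 of PBS mice (log2 -0.94, SE 0.73, edgeR adjusted p = 0.689).

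Hsph1, the Hsp110 that recharges Hsp70 with ATP, had the largest fitted difference of the 10 genes in ILC2. It was at 28.7, 139, 74.6 and 223 CPM in NMU mice 1 to 4, against 281, 406, 193 and 257 CPM in PBS mice 5 to 8. NMU mice 1, 2 and 3 lay below all PBS mice, and NMU mouse 4 lay among them. The log2 difference of Hsph1 was -1.30 (SE 0.50, edgeR adjusted p = 0.319). EdgeR fitted to all 24 libraries called Hsph1 (0.0436, the lowest of 15 alternatives, with 0.518 the highest).

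Of the J-domain genes, which deliver clients to Hsp70, Dnaja1 fell. It was at 589, 601, 368 and 508 CPM in ILC2 of NMU mice 1 to 4, against 1022, 959, 767 and 928 CPM in ILC2 of PBS mice 5 to 8. All 4 NMU libraries lay below all 4 PBS libraries with a clear gap, and the NMU mean was 56.2% of the PBS mean. The log2 difference of Dnaja1 was -0.85 (SE 0.16, edgeR adjusted p = 0.0470). This call stood close to its threshold: it was lost without any 1 of the 8 mice (adjusted p 0.0634 to 0.152) and with DESeq2 size factors (0.0570), while the log2 difference lay between -0.93 and -0.72 and the adjusted p between 5.07e-05 and 0.152 over 15 alternatives, 6 of which passed.

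Dnajb1 overlapped between treatments. It was at 631, 709, 716 and 937 CPM in ILC2 of NMU mice 1 to 4, against 862, 1603, 788 and 1023 CPM in ILC2 of PBS mice 5 to 8. NMU mouse 4 lay above PBS mice 5 and 7, and PBS mouse 6 stood far above all other libraries of both treatments. The log2 difference of Dnajb1 was -0.53 (SE 0.22, edgeR adjusted p = 0.357).

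Both Hsp90 genes were lower in every NMU library of ILC2 without passing the test. Hsp90aa1, the inducible form, was at 278, 275, 291 and 359 CPM in NMU mice 1 to 4, against 400.2, 429, 375 and 476 CPM in PBS mice 5 to 8 (log2 -0.50, SE 0.13, edgeR adjusted p = 0.133). DESeq2 (adjusted p = 0.0129) and edgeR fitted to all 24 libraries (0.0253) called Hsp90aa1, and the adjusted p spanned 0.0129 to 0.336 over 15 alternatives. Hsp90ab1, the constitutive form, was at 1753, 1281, 1492 and 1689.8 CPM in NMU mice 1 to 4, against 2098, 1893, 1815 and 1830.2 CPM in PBS mice 5 to 8. The gap between the highest NMU library of Hsp90ab1 and its lowest PBS library was narrow (log2 -0.32, SE 0.12, edgeR adjusted p = 0.283).

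The mitochondrial chaperonin genes did not pass either, and Hspd1 had the smallest difference of the 10. Hspd1 was at 180.2, 186, 156 and 176 CPM in ILC2 of NMU mice 1 to 4, against 205, 219.9, 187 and 211 CPM in ILC2 of PBS mice 5 to 8 (log2 -0.26, SE 0.12, edgeR adjusted p = 0.416). Its groups did not overlap, by less than 1 CPM between NMU mouse 2 and PBS mouse 7. Hspe1 averaged 48.7 ± 4.39 CPM in NMU mice and 61.5 ± 14.6 CPM in PBS mice (log2 -0.35, SE 0.21, edgeR adjusted p = 0.576), and its libraries overlapped.

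Other RNA moved with the treatment in ILC2 beside these genes. Immunoglobulin took 0.0241 to 0.867% of the counts in NMU and 0.665 to 7.93% in PBS libraries. The summed level of 9 plasma and B cell markers was 936 to 1758 CPM in NMU and 2131 to 17109 CPM in PBS libraries, with 6 of 7 tested markers below 0. For 8 macrophage markers it was 62.9 to 744 CPM in NMU and 109 to 2237 CPM in PBS libraries, with 8 of 8 below 0. For 8 fibroblast markers it was 0 to 28.2 CPM in NMU and 11.1 to 385 CPM in PBS libraries, with 5 of 5 below 0 and Lum and Mfap5, which mark matrix-forming fibroblasts, at 0 in all NMU libraries. None of the tested markers of these 3 lists passed. The 8 epithelial markers summed to 38.4 to 65.0 CPM in NMU and 13.6 to 32.2 CPM in PBS libraries. Of 4 tested, 2 were above and 2 below 0 with a median log2 difference of -0.40, and only Epcam passed, higher. Muc2 was at 0 in all NMU libraries. The 8 ILC2 markers summed to 11561 to 15039 CPM in NMU and 11371 to 12090 CPM in PBS libraries, with 6 of 8 above 0 and a median log2 difference of 0.31. Of them 1 rose, Klrg1, whose protein is part of the ILC2 gate (1494.5 ± 173 CPM in NMU and 836 ± 130.5 CPM in PBS mice, log2 0.82, SE 0.14, edgeR adjusted p = 0.0300). Genes with a count numbered 10778 to 12637 in NMU and 12635 to 13736 in PBS libraries. The lowest number, 10778, was that of NMU mouse 1, the mouse with the lowest ILC2 level of Hspa1a, Hspa1b and Hsph1. The part of the number of genes, of the ILC2 markers and of the other cells' RNA in the values of the chaperone genes was not tested. With immunoglobulin genes left out, the median of the 10 genes was still -0.52 and 1 passed.

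Other chaperone genes in ILC2 are given by counts and medians, with no test of the lists. In 8 lists of other chaperone genes, holding the heat shock factors, other Hsp70 and Hsp110 genes, other J-domain genes, Hsp90 cochaperones, the cytosolic chaperonin TRiC with prefoldin, mitochondrial chaperones, small heat shock proteins and chaperones of the endoplasmic reticulum (ER), 0 genes passed by edgeR. Their median log2 differences for NMU against PBS were 0.18 for 3 tested heat shock factor genes, -0.07 for 14 Hsp70 and Hsp110 genes, -0.01 for 21 J-domain genes and -0.05 for 13 Hsp90 cochaperones. They were -0.09 for 14 genes of TRiC and prefoldin, -0.03 for 9 mitochondrial and -0.14 for 15 ER chaperones, and -0.77 for the 3 tested small heat shock proteins, which summed to 4.95 to 12.3 CPM in NMU and 10.2 to 18.8 CPM in PBS libraries. Of the 3 heat shock factor genes tested, 2 lay above 0 and 1 below, and none passed. Hsf1, the gene of the factor itself, averaged 59.1 ± 14.8 CPM in ILC2 of NMU mice and 85.4 ± 12.5 CPM in ILC2 of PBS mice. Immediate early genes, a list also raised by tissue dissociation, were below 0 in 17 of 20, with a median of -0.45. Of them only Junb, an AP-1 subunit, fell past the test, at 8585 ± 890.2 CPM in NMU and 13696 ± 1033 CPM in PBS mice (log2 -0.69, SE 0.10, edgeR adjusted p = 0.0169).

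**Figure D2:**
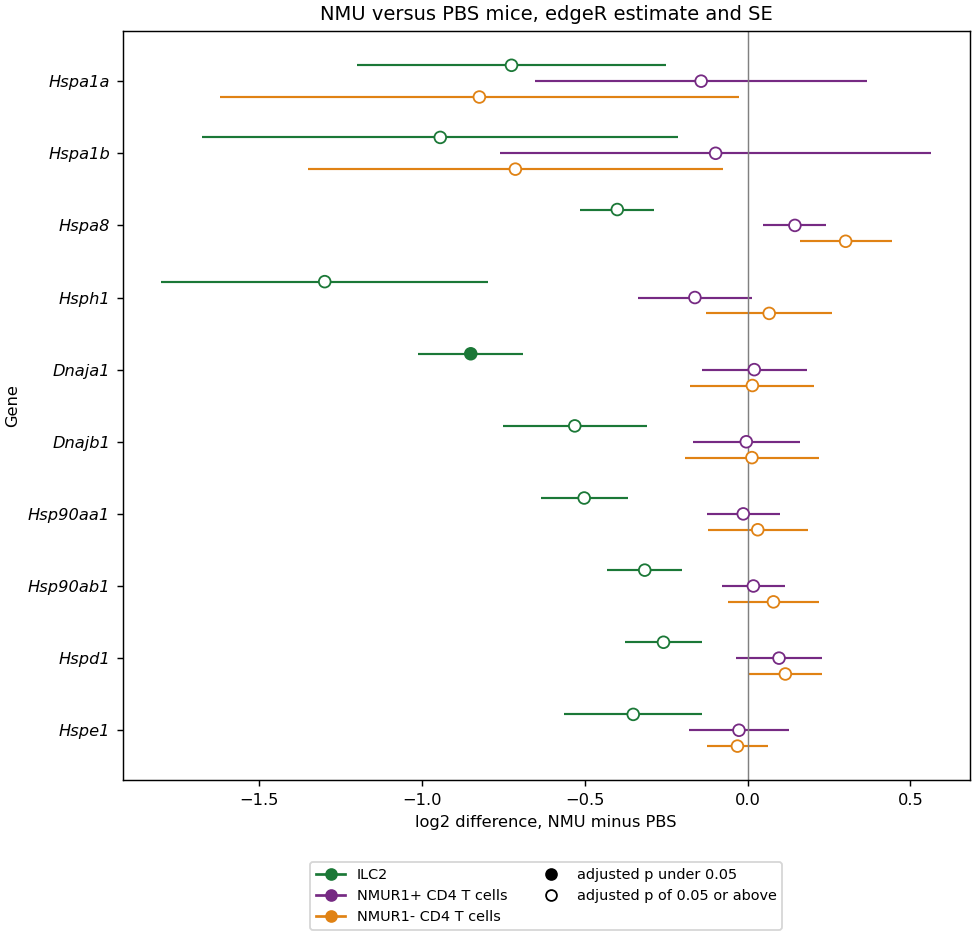
Log2 difference of NMU minus PBS (horizontal axis) with its SE for the 10 genes in ILC2 (green), NMUR1+ (purple) and NMUR1- cells (orange), from edgeR; filled points have an adjusted p under 0.05. All 10 ILC2 points lie left of 0, from -1.30 for Hsph1 to -0.26 for Hspd1, and only that of Dnaja1 is filled.

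In NMUR1+ CD4 T cells, sorted by the same receptor reporter, none of the 10 genes differed past the test and the median was -0.01. EdgeR called 0 of 12061 genes (0%) here, with an unadjusted p under 0.05 for 2.55% of genes and 0 of the 10, DESeq2 called 2 and limma voom 0. The 10 log2 differences lay between -0.16 for Hsph1 and 0.15 for Hspa8, 4 of them above 0. Dnaja1 was at 267, 205, 183 and 261 CPM in NMU mice 1 to 4, against 208, 246, 255 and 193 CPM in PBS mice 5 to 8 (log2 0.02, SE 0.16, edgeR adjusted p = 1.00). The groups of Dnaja1 overlapped fully. Hspa1a was at 293, 387, 136 and 528 CPM in NMU mice 1 to 4, against 366, 668, 157 and 293 CPM in PBS mice 5 to 8 (log2 -0.14, SE 0.51, edgeR adjusted p = 1.00). NMU mouse 3 and PBS mouse 7 were low and NMU mouse 4 and PBS mouse 6 high, and the groups overlapped. The log2 difference of Hspa1b was -0.10 (SE 0.66). Groups of libraries overlapped for all 10 genes, while 0.546% of 8243 genes had all NMU libraries lower and 0.983% had them all higher.

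In NMUR1- CD4 T cells none of the 10 genes passed either, with log2 differences of -0.82 for Hspa1a to 0.30 for Hspa8, a median of 0.02 and 7 of 10 above 0. EdgeR called 0 of 12103 genes (0%), with an unadjusted p under 0.05 for 7.25% of genes and 0 of the 10, DESeq2 called 21 and limma voom 0. Hspa8 was the member nearest to the threshold, on the side opposite to ILC2. It was at 1613, 1573, 1526 and 1843 CPM in NMU mice 1 to 4, against 1468, 1557, 1258 and 1021 CPM in PBS mice 5 to 8 (log2 0.30, SE 0.14, edgeR adjusted p = 0.691). NMU mice 1, 2 and 4 lay above all PBS mice, and NMU mouse 3 lay below PBS mouse 6. All 10 genes overlapped between treatments here, while 1.95% of 8000 genes had all NMU libraries lower and 2.56% had them all higher. Hspa1a was at 103, 87.0, 42.7 and 263 CPM in NMU mice 1 to 4, against 333, 399, 67.1 and 73.7 CPM in PBS mice 5 to 8 (log2 -0.82, SE 0.80, edgeR adjusted p = 0.880). The other log2 differences were -0.71 (SE 0.64) for Hspa1b, 0.07 (SE 0.19) for Hsph1 and 0.01 (SE 0.19) for Dnaja1, and the remaining 5 lay between -0.03 and 0.12.

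The difference between the NMU effect in ILC2 and that in CD4 T cells was tested in its own right. In the fit without a mouse block it passed for 0 of the 10 genes. Against NMUR1+ cells all 10 differences were below 0 with a median of -0.52 (-0.04 over all genes), 98 of 13509 genes (0.725%; 0.222% above 0 and 0.503% below 0) passed, and 5 of the 10 against 13.2% of all genes had an unadjusted p under 0.05. Against NMUR1- cells 9 of 10 were below 0 with a median of -0.45 (-0.03 over all genes), 72 genes (0.533%; 0.155% above 0 and 0.378% below 0) passed, and 6 of the 10 against 11.3% of all genes had an unadjusted p under 0.05. By DESeq2, 0 of the 10 passed against NMUR1+ and 1 against NMUR1- cells. That gene was Hspa8, whose NMU effect in ILC2 minus that in NMUR1- cells was -0.69 (SE 0.16, edgeR adjusted p = 0.0609). DESeq2 called it (0.0107), as did edgeR with the mouse as replicate block (log2 -0.70, adjusted p = 0.0297) and without mouse 6 (log2 -0.73, adjusted p = 0.0474), and its adjusted p spanned 0.0107 to 0.183 over 15 alternatives. For Dnaja1 the difference was -0.85 against either CD4 population (SE 0.26 in both, edgeR adjusted p = 0.133 against NMUR1+ and 0.166 against NMUR1- cells). These contrasts share the ILC2 libraries. Between NMUR1+ and NMUR1- cells the NMU effects differed for 0 of 13509 genes (0%; unadjusted p under 0.05 for 1.16% of genes and 0 of the 10; 4 genes by DESeq2).

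Between populations, Dnaja1, Dnajb1 and Hspa8 were higher in ILC2 than in either CD4 population. Against NMUR1+ cells 3 of the 10 passed, all higher in ILC2, where 5218 of 13509 genes passed (38.6%; 15.1% higher and 23.5% lower). Against NMUR1- cells 4 passed, 3 higher and 1 lower in ILC2, where 5471 genes passed (40.5%; 16.4% higher and 24.1% lower). Over both directions together the shares among the 10 thus lay near those of all genes. By direction, the share called higher lay above that of all genes and the share called lower lay below it, in both comparisons. With only 10 genes, nothing is read from this split. Before adjustment, p was under 0.05 for 4 of the 10 and 47.3% of all genes against NMUR1+ cells, and for 5 of the 10 and 47.9% of all genes against NMUR1- cells.

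**Figure D3:**
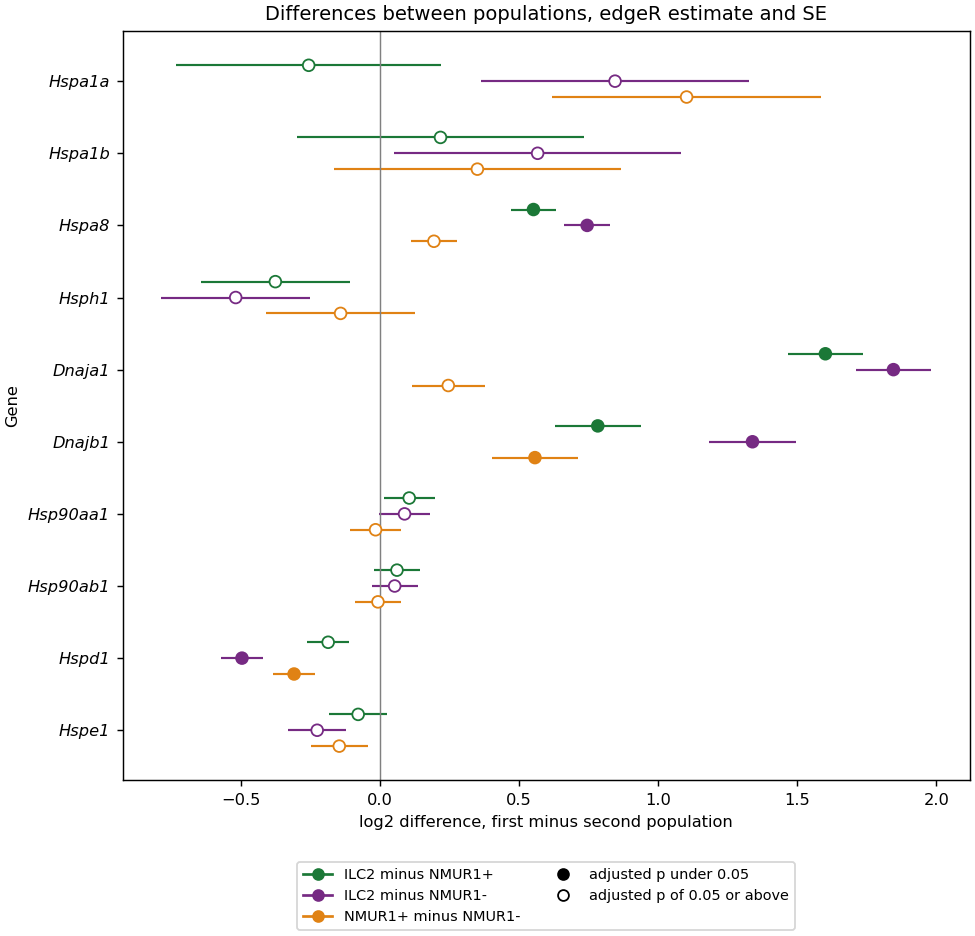
Log2 difference between populations (horizontal axis, first minus second population) with its SE, from edgeR, for ILC2 minus NMUR1+ (green), ILC2 minus NMUR1- (purple) and NMUR1+ minus NMUR1- cells (orange); filled points have an adjusted p under 0.05. Dnaja1 lies farthest right, at 1.60 and 1.85 for ILC2, and Hsp90aa1 and Hsp90ab1 lie near 0 in all 3.

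Dnaja1 had the largest difference. It ran from 368 to 1022 CPM with a median of 684 in ILC2, from 183 to 267 with a median of 227 in NMUR1+ and from 138 to 265 with a median of 189.98 in NMUR1- libraries. No CD4 library reached the lowest ILC2 library, and Dnaja1 was higher in ILC2 in 8 of 8 animals (log2 1.60, SE 0.13, edgeR adjusted p = 2.73e-09 against NMUR1+; log2 1.85, SE 0.14, edgeR adjusted p = 2.24e-10 against NMUR1- cells). Both calls held in every alternative run.

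Dnajb1 was graded over the 3 populations, in the same order as Nmur1. The means of Dnaja1, Hspa8 and Hspa1b had this order too, though their differences between NMUR1+ and NMUR1- cells did not pass. Dnajb1 ran from 631 to 1603 CPM with a median of 825 in ILC2, from 413 to 692 with a median of 509 in NMUR1+ and from 244 to 450.1 with a median of 341 in NMUR1- libraries. It was higher in ILC2 in 8 of 8 mice against either population (log2 0.78, SE 0.15, edgeR adjusted p = 0.000314 against NMUR1+; log2 1.34, SE 0.16, edgeR adjusted p = 3.27e-07 against NMUR1- cells). It was also higher in NMUR1+ than in NMUR1- cells in 8 of 8 mice, by a log2 difference of 0.56 (SE 0.15, edgeR adjusted p = 0.0257). This last call ended without mouse 1, 2, 3, 7 or 8 (adjusted p 0.0602 to 0.112) and without the 4 immunoglobulin-rich libraries (0.169), where its log2 difference was still 0.56.

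Hspa8 ran from 1951 to 3211 CPM for ILC2, from 1407 to 1819 for NMUR1+ and from 1021 to 1843 for NMUR1- libraries. Every ILC2 library lay above every CD4 library (log2 0.55, SE 0.08, edgeR adjusted p = 1.24e-05 against NMUR1+; log2 0.74, SE 0.08, edgeR adjusted p = 1.47e-07 against NMUR1- cells). Between NMUR1+ and NMUR1- cells the log2 difference of Hspa8 was 0.19 (SE 0.08, edgeR adjusted p = 0.162).

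Hspd1 ran the other way. It was at 156 to 219.9 CPM for ILC2, 188 to 254 for NMUR1+ and 230.4 to 305 for NMUR1- libraries. All ILC2 libraries lay below all NMUR1- libraries (log2 -0.50, SE 0.08, edgeR adjusted p = 1.46e-05), and Hspd1 was lower in ILC2 in 8 of 8 mice. NMUR1+ cells had less than NMUR1- cells in 7 of 8 animals, with a log2 difference of -0.31 (SE 0.08, edgeR adjusted p = 0.0121). Against NMUR1+ cells the ILC2 difference of -0.19 missed the threshold (SE 0.08, edgeR adjusted p = 0.0553), and of 17 alternatives, which spanned 0.0350 to 0.380, DESeq2 alone called it (0.0350). Its partner Hspe1 had the same sign in all 3 comparisons, at -0.08, -0.23 and -0.15, and passed in none (edgeR adjusted p 0.0852 to 0.579).

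The Hsp90 genes passed in no comparison of populations. Hsp90ab1 had a mean of 1731 ± 251 CPM for ILC2, 1652 ± 112 for NMUR1+ and 1662 ± 221 for NMUR1- cells, and Hsp90aa1 averaged 360.4 ± 74.6, 331 ± 17.5 and 335 ± 51.9 CPM in the same order (SD, n = 8). The 2 ILC2 differences of each gene lay between 0.05 and 0.10, with SE of 0.08 to 0.09 and edgeR adjusted p from 0.389 to 0.655. A difference of this size is within the error of the fit, which does not show that the levels are equal. They also pool both treatments. In NMU mice Hsp90aa1 averaged 301 ± 39.6 CPM in ILC2, against 329 ± 10.8 in NMUR1+ and 339 ± 60.7 in NMUR1- cells. In PBS mice it averaged 420.3 ± 43.3 CPM in ILC2, against 332 ± 24.4 in NMUR1+ and 330.3 ± 50.5 in NMUR1- cells (SD, n = 4 each). In PBS mice every ILC2 library, at 375 to 476 CPM, lay above every NMUR1+ library, at 309 to 363 CPM. The NMU effect on Hsp90aa1 in ILC2 minus that in NMUR1+ cells was -0.47 (SE 0.18, edgeR adjusted p = 0.241).

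Comparing NMUR1+ with NMUR1- cells, the sort on the reporter within CD4 T cells, 1123 of 13509 genes passed (8.31%; 5.49% higher and 2.83% lower), and 2 of the 10, Dnajb1 higher and Hspd1 lower. Before adjustment, p was under 0.05 for 4 of the 10 and for 21.6% of all genes. The inducible Hspa1a had the largest fitted difference of the 10. It ran from 136 to 668 CPM with a median of 329.5 in NMUR1+ and from 42.7 to 399 CPM with a median of 95.0 in NMUR1- libraries. Hspa1a was higher in NMUR1+ cells in 8 of 8 mice, by a log2 of 0.14 to 2.14 within the mouse, yet it missed the threshold without a block (log2 1.10, SE 0.48, edgeR adjusted p = 0.185). With the mouse as replicate block, which compares the populations within each mouse, Hspa1a passed (log2 1.25, edgeR adjusted p = 0.00296). The block also called Hspa1a higher in ILC2 than in NMUR1- cells (log2 1.02, adjusted p = 0.00280; without a block log2 0.84, SE 0.48, 0.175) and Hsph1 lower (log2 -0.64, adjusted p = 0.0317; without a block log2 -0.52, SE 0.27, 0.129; 0.0313 to 0.286 over 16 alternatives, 3 of which passed), which brought the count in that comparison to 6 of 10.

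Markers of other cells moved with these comparisons too. The summed plasma and B cell markers ran from 936 to 17109 CPM for ILC2, from 2212 to 99813 for NMUR1+ and from 1110.5 to 11439 for NMUR1- libraries. The macrophage markers ran from 62.9 to 2237 CPM for ILC2, from 1860 to 4764 for NMUR1+ and from 437 to 1967 for NMUR1- libraries. Without the 4 immunoglobulin-rich libraries, ILC2 still differed from NMUR1+ cells in 3 of the 10 genes, and NMUR1+ from NMUR1- cells in 1. The part of these markers in the differences was otherwise not tested.

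Between populations the wider chaperone lists held genes that were higher and genes that were lower. Their counts for ILC2 stand beside 38.6% of all genes called against NMUR1+ cells (15.1% higher and 23.5% lower) and 40.5% against NMUR1- cells (16.4% higher and 24.1% lower), and nothing particular to a list is read from them. Hsf1 was higher in ILC2, at 72.3 ± 18.9 CPM for ILC2, 38.0 ± 3.07 for NMUR1+ and 41.4 ± 6.20 for NMUR1- cells (log2 0.90 against NMUR1+ and 0.78 against NMUR1- cells, edgeR adjusted p = 3.95e-06 and 2.11e-05). Of 4 tested genes of the heat shock factor list, 1 was higher and 2 lower in ILC2 against NMUR1+ cells, and 1 higher and 1 lower against NMUR1- cells. Hsf4 was lower in both by the fit, at 0 to 3.93 CPM in ILC2, 0.0967 to 2.51 in NMUR1+ and 0.399 to 2.22 in NMUR1- libraries. It had no count in ILC2 of PBS mice, yet its highest library was 1 of ILC2, so these calls rest on levels near the floor. Hsbp1, a binder of HSF1, was lower against NMUR1+ cells (log2 -0.41, edgeR adjusted p = 0.00562). Among 14 tested Hsp70 and Hsp110 genes, 6 passed against each CD4 population. Of these, 3 were higher and 3 lower in ILC2 against NMUR1+ cells, and 2 higher and 4 lower against NMUR1- cells. Hspa2, an Hsp70 best known from the testis, had a mean of 136 ± 20.8 CPM for ILC2, 74.98 ± 15.3 for NMUR1+ and 36.9 ± 14.8 for NMUR1- cells and was higher in ILC2 in both comparisons. Bag1, a nucleotide exchange factor of Hsp70, averaged 124.6 ± 21.1, 188 ± 40.5 and 250.2 ± 29.9 CPM in that order and was lower in ILC2 in both.

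The J-domain and chaperonin lists were mixed, beside 38.6% of all genes called for ILC2 against NMUR1+ and 40.5% against NMUR1- cells. Of 21 tested J-domain genes 2 were higher and 4 lower in ILC2 against NMUR1+ cells, and 2 higher and 5 lower against NMUR1- cells. Dnajb2, a J-domain gene best known from neurons, was higher in ILC2, at 51.5 ± 14.1 CPM against 19.0 ± 5.60 in NMUR1+ and 13.6 ± 6.19 in NMUR1- cells. Dnajc15, a mitochondrial J-domain gene, was lower in ILC2, at 25.9 ± 6.70 CPM against 47.7 ± 10.4 in NMUR1+ and 91.9 ± 30.9 in NMUR1- cells. Of 14 genes of TRiC and prefoldin 2 were higher in each comparison, Cct4 and Pfdn5, and 4 were lower against NMUR1+ and 7 against NMUR1- cells. Among 15 ER chaperones 7 were lower in ILC2 in each comparison, with 1 higher against NMUR1+ and 2 against NMUR1- cells. Several of them, such as Pdia4 and Sdf2l1, are abundant in plasma cells. The summed plasma and B cell markers had a median of 1944 CPM in ILC2, 33858 in NMUR1+ and 1754 in NMUR1- libraries. The part of plasma cell RNA in these differences was not tested.

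Hsp90 cochaperones gave 3 higher and 2 lower of 13 in ILC2 against NMUR1+ cells and 0 higher and 4 lower against NMUR1- cells, with Ahsa1, an activator of the Hsp90 ATPase, among those lower in both. Of 9 mitochondrial chaperones and proteases 1 passed in each, Hspa9, the mitochondrial Hsp70, higher in ILC2 (234 ± 30.4 CPM for ILC2, 175 ± 22.7 for NMUR1+ and 199 ± 16.4 for NMUR1- cells). Between NMUR1+ and NMUR1- cells, where 8.31% of all genes passed, 0 passed among the Hsp90 cochaperones, TRiC and prefoldin, mitochondrial chaperones, small heat shock proteins and heat shock factors. There, 4 ER chaperones were higher, 2 J-domain genes lower, and 2 Hsp70 or Hsp110 genes higher and 1 lower. Immediate early genes passed in 16 of 20 higher and 2 lower in ILC2 against NMUR1+ cells, 17 and 2 against NMUR1- cells, and 10 higher and 1 lower in NMUR1+ against NMUR1- cells. Over all genes 38.6%, 40.5% and 8.31% passed in these comparisons. The immediate early genes thus moved between the populations beside Dnajb1, and their part in it was not tested.

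**Figure D4:**
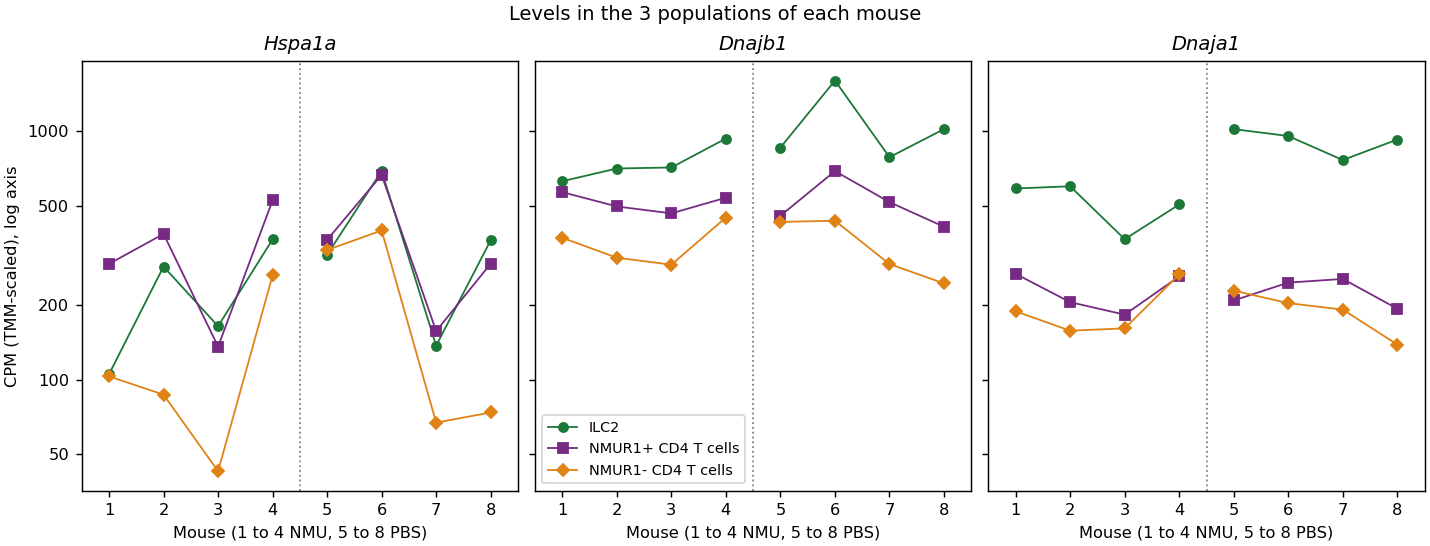
Level of Hspa1a, Dnajb1 and Dnaja1 in CPM (log axis) in the 3 populations of each mouse, mice 1 to 4 with NMU left of the dotted line and mice 5 to 8 with PBS right of it. Hspa1a is high in mouse 6 and low in mice 3 and 7 in all 3 populations, while its lowest ILC2 value is that of mouse 1, and Dnaja1 in ILC2 is lower in all NMU than in all PBS mice.

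The inducible Hsp70 varied between mice, and its high and low values often fell in the same mice in the 3 populations, though no relation passed adjustment. Hspa1a stood at 692.9, 668 and 399 CPM in the ILC2, NMUR1+ and NMUR1- cells of PBS mouse 6, the highest value of each population. In PBS mouse 7 it stood at 137, 157 and 67.1 CPM, and in NMU mouse 3 at 164, 136 and 42.7 CPM. The coefficient of variation of Hspa1a within a group was 49.0 to 79.2%, while that of Hspa8 was 3.13 to 18.0% and that of Hspd1 6.80 to 11.1%.

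Same-mouse likeness was measured on deviations of log2(CPM + 1) from the group mean, with exact permutation of mice within each treatment (576 arrangements) and adjustment over 30 relations. For Hspa1a the deviations of NMUR1+ and NMUR1- cells had r = 0.87 (permutation p = 0.00868, adjusted 0.130; Spearman rho = 0.88, permutation p = 0.0156, adjusted 0.234; 8 mice), and r = 0.78 without the 2 mice farthest from the median. For ILC2 and NMUR1+ cells it had r = 0.81 (permutation p = 0.0313, adjusted 0.313; rho = 0.83, permutation p = 0.0313, adjusted 0.313), and r = 0.93 without the 2 farthest mice. For ILC2 and NMUR1- cells r was 0.64 (permutation p = 0.153, adjusted 0.503; rho = 0.71, permutation p = 0.0903, adjusted 0.479), and r = 0.69 without 2 mice. None of the 30 relations passed the adjustment. The smallest p that the 576 arrangements can give is 0.00174. With 30 relations, 1 relation alone could therefore not have passed whatever its r, and the adjustment cannot decide for it.

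The median r over 8217 to 8230 genes was 0.26 between NMUR1+ and NMUR1- cells, 0.06 between ILC2 and NMUR1+ and 0.01 between ILC2 and NMUR1- cells. An r as high as that of Hspa1a was found for 2.60%, 2.20% and 7.17% of genes in the same order. For Hspa1b r was 0.86 between ILC2 and NMUR1+ cells (permutation p = 0.00347, adjusted 0.104; rho = 0.88, permutation p = 0.0104, adjusted 0.234), and 0.87 without 2 mice. Its r was 0.56 between ILC2 and NMUR1- cells (permutation p = 0.184, adjusted 0.503; rho = 0.62, permutation p = 0.139, adjusted 0.479), and 0.73 without 2 mice. Between NMUR1+ and NMUR1- cells it was 0.78 (permutation p = 0.0556, adjusted 0.417; rho = 0.64, permutation p = 0.153, adjusted 0.479), and 0.87 without 2 mice. For Dnaja1, the gene that fell with NMU in ILC2, r was 0.28 between ILC2 and NMUR1+, 0.15 between ILC2 and NMUR1- and 0.64 between NMUR1+ and NMUR1- cells (permutation p = 0.665, 0.734 and 0.141, adjusted 0.867, 0.873 and 0.503). Spearman's rho of Dnaja1 was 0.21, -0.12 and 0.60 in the same order (permutation p = 0.613, 0.839 and 0.160, adjusted 0.913, 0.917 and 0.479), and r without 2 mice was -0.09, -0.24 and 0.34. The 3 libraries of a mouse share the animal, and the labels give no day of dissection.

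**Figure D5:**
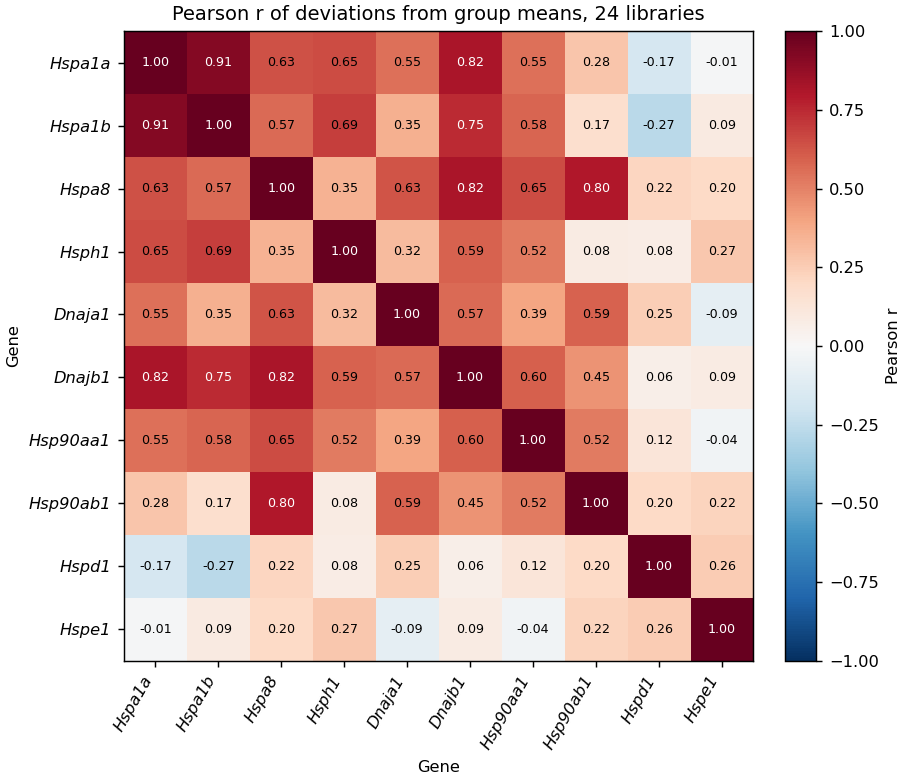
Pearson r between each pair of the 10 genes over 24 libraries, on deviations of log2(CPM + 1) from the group mean (red above 0, blue below 0). Dnajb1 has r of 0.82 with Hspa1a and Hspa8, and Hspd1 and Hspe1 have no r above 0.27 with any other gene.

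Over the 24 libraries every pair of cytosolic genes had r above 0, and no pair that held a mitochondrial gene had r above 0.27. Neither held within each population. Hspa1a and Hsp90ab1 had r = -0.14 in ILC2 and -0.48 in NMUR1+ cells, and Dnaja1 and Hspd1 had r = 0.90 in ILC2. Of 45 pairs 40 had r above 0 and 20 had r of 0.5 or above, with a median of 0.35 and a range of -0.27 to 0.91 over 24 libraries. These are descriptions without a test, since the libraries share mice, depth and scaling. The highest was that of Hspa1a with Hspa1b (0.91), which share sequence. Dnajb1 had r = 0.82 with both Hspa1a and Hspa8, and Hspa8 had r = 0.80 with Hsp90ab1. Hspd1 had r of -0.27 to 0.26 with the other 9 genes. The median over the 45 pairs was 0.45 in ILC2, 0.26 in NMUR1+ and 0.73 in NMUR1- libraries (n = 8 libraries each).

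The genes most like the mean deviation of the 10, among 8220 other genes with a mean of at least 10 CPM over the 24 libraries, were Cyp51, an enzyme of cholesterol synthesis (r = 0.78), Rin2 (0.78), Smg6, a nuclease of nonsense-mediated decay (0.76), Arl13b, a small GTPase of cilia (0.75), Zbtb38 (0.75) and Errfi1, an inhibitor of the EGF receptor (0.75). For the members themselves r with that mean was, for example, 0.94 for Hspa1a, 0.88 for Dnajb1, 0.17 for Hspe1 and -0.01 for Hspd1, which is in part given by their share in it. The deviations were averaged unscaled, so genes that vary widely, such as Hspa1a and its near copy Hspa1b, weigh most. The genes most like the mean are therefore not equally like all 10. The mean deviation was highest in NMUR1- cells of NMU mouse 4 (0.44) and lowest in NMUR1- cells of PBS mouse 8 (-0.47).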

How the data were processed

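Bulk RNA was sequenced from 24 sorted populations of 8 mice. The authors deposited 1 table of whole-number read counts per gene, not normalized. Reads were aligned with STAR 2.5.3 to mm10 per the submitters' processing notes; for the counter, its annotation and its strand setting the sources at hand give nothing. Per the labels' protocols the libraries were made with a low-input kit that marks neither strand nor molecules. Amplified copies of 1 molecule can therefore not be told apart in the counts. The p-values on counts rest on the spread between libraries, in which the sources of that spread are not parted. The gates were CD45+ Lin- CD90.2+ CD127+ KLRG1+ for ILC2 and CD45+ CD3+ CD5+ CD4+ for T cells. Of 27179 gene rows 93.0% carried a symbol, and those without held 0.986% of the counts. Totals had a median of 12468364.

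The tests on counts used R 4.3.3 and edgeR 4.0.16 (robust quasi-likelihood, filterByExpr with a minimum count of 10, trimmed mean of M values, Benjamini-Hochberg adjustment over all genes tested, threshold 0.05). NMU was set against PBS in a fit of 8 libraries per population. Populations and differences between NMU effects were taken from 1 fit of all 24 libraries, with 6 group means and no term for the mouse. That fit leaves the pairing by mouse unused, while the fit with a mouse block uses it. The script was tested on simulated data. DESeq2 1.42.0, limma 3.58.1 voom, other size factors, no filter, immunoglobulin genes left out, Hspa1a and Hspa1b summed, each mouse left out, the 4 immunoglobulin-rich libraries left out and a mouse block were tried.

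The replicate numbers name mice, and each mouse gave all 3 populations, so they pair the samples. Same-mouse libraries correlated in their deviations from the group means with a median r of 0.150 over 24 pairs (-0.0117 to 0.647), against -0.0461 over 72 pairs of other mice. Named genes were all 10 members, Nmur1 as a check of the sort, up to 3 genes per list and direction with the smallest p among those that passed, the 6 genes most like the members' mean, and marker genes at 0. Hsf1 is also given for ILC2 by treatment, where it did not pass. The members and lists were chosen with earlier results of these data known. Promoter letters are from RefSeq (GRCm38.p6).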

Additional observations from a re-analysis of the deposited data

Results flagged for a closer look

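Of 60 groups of 4 libraries (10 genes in 6 groups), 3 held 1 library whose gap to its nearest neighbour exceeded 0.829 of the group's range, and chance gives about 1 in 20 groups. All 3 lay in NMUR1- cells of NMU mice. Hspa1b was highest in mouse 4, at 10.3 CPM, where the others lay between 2.47 and 3.67 CPM. Hsph1 was also highest in mouse 4, at 353 CPM, above 231 to 247 CPM in the others. Hspe1 was lowest in mouse 1, at 60.4 CPM, where the others lay between 64.2 and 64.9 CPM, a narrow range.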

How the results depend on the processing

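Among the 10 genes, the number past the test for NMU against PBS in ILC2 was 1 by edgeR, 0 with DESeq2 size factors, 3 with DESeq2, 4 in the fit of all 24 libraries and 0 without any 1 mouse. For NMUR1+ against NMUR1- cells it was 2, 1 without the 4 immunoglobulin-rich libraries and 1 to 2 without 1 mouse. For the NMU effect in ILC2 minus that in NMUR1- cells it was 0, 1 with DESeq2, 1 with the mouse as replicate block and 0 to 1 without 1 mouse. The block also gave 6 in place of 4 for ILC2 against NMUR1- cells and 3 in place of 2 for NMUR1+ against NMUR1- cells, and changed no other call. Over all genes, NMU against PBS in ILC2 gave 74 calls with edgeR and 472 with DESeq2. The calls of Dnaja1, Dnajb1 and Hspa8 in ILC2 against each CD4 population held in every alternative run, as did Hspd1 in ILC2 against NMUR1- cells.

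Some log2 values without a call changed sign, and the cause was not tested. For Dnaja1 in NMUR1+ cells, NMU minus PBS was -0.0053 with limma voom, -0.18 without the immunoglobulin-rich libraries and -0.0651 to 0.12 without 1 mouse. In NMUR1+ cells without 1 mouse it was -0.46 to 0.31 for Hspa1a and -0.42 to 0.65 for Hspa1b, where it was -0.14 and -0.10 with all mice. Without the immunoglobulin-rich libraries Hspa1a there was at -0.88. Without 1 mouse it was, in NMUR1- cells, -0.0888 to 0.16 for Hsph1 and -0.17 to 0.10 for Dnaja1. For ILC2 minus NMUR1+ cells, Hspa1b was -0.0496 without the immunoglobulin-rich libraries. The NMU effect of Hspa1a in ILC2 minus that in NMUR1+ cells was -0.57 with all libraries and 0.16 without them. Minus that in NMUR1- cells it was -0.026 with limma voom and -0.25 to 0.47 without 1 mouse for Hspa1a, and -0.47 to 0.15 without 1 mouse for Hspa1b. At these depths Hspa1b, at 1.48 to 23.9 CPM over the libraries, rests on the fewest counts of the 10.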
